A study of Homo sapiens with 12 samples.

Results

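The genes described here are 9 feedback inhibitors of receptor tyrosine kinase and ERK signalling, namely the Sprouty genes SPRY1, SPRY2 and SPRY4, the SPRED genes SPRED1, SPRED2 and SPRED3, and the dual-specificity phosphatase genes DUSP4, DUSP5 and DUSP6. They were taken by symbol from a table of 40825 gene rows, and each symbol stood on 1 row. With a mean FPKM (reads per length and depth) of 0.5 or more over the 12 libraries, 8 of the 9 were tested together with all other genes, 15587 rows in all. SPRED3 stood at a mean of 0.372 FPKM, was not tested in this way, and is described by its values.

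Receptor tyrosine kinases pass their signal through RAS, RAF and MEK to the kinase ERK, and active ERK switches on genes that turn the same pathway down. Sprouty proteins act between the receptor and RAF, and SPRED proteins recruit the RAS GTPase-activating protein neurofibromin (NF1) to the membrane. DUSP6 removes phosphate from ERK in the cytoplasm, while DUSP4 and DUSP5 act in the nucleus. Transcripts of several of these genes are used as readouts of ERK activity in cancer cells, and low Sprouty and SPRED levels have been described in liver cancer.

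The study used 2 established liver cancer lines of human origin, Huh7 and PLC/PRF/5, both labelled WT for genotype, and treated them with lenvatinib or DMSO, the vehicle. Lenvatinib, a drug for liver cancer, blocks several receptor tyrosine kinases, the VEGF and FGF receptors among them. Each of the 4 groups (Huh7 with lenvatinib, Huh7 with DMSO, PLC/PRF/5 with lenvatinib, PLC/PRF/5 with DMSO) had 3 RNA libraries, and the submitters' stated aim concerns resistance to the drug. The sources used here give neither the dose nor the exposure time. Nothing in the labels says that replicates were grown apart, and the p-values therefore speak only of the spread among these libraries, which may be technical.

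Total counts ran from 70236175 to 75820318 per library, and CPM below are counts scaled to the depth of each library. The 8 hepatocyte markers summed to between 935 and 1282 FPKM in Huh7 with lenvatinib, against 782 to 816 FPKM with DMSO. ALB carried that higher sum (744 to 1009 against 526.5 to 563 FPKM), while TTR (18.5 to 23.5 against 56.6 to 63.6 FPKM) and AFP (88.9 to 108 against 133 to 135.5 FPKM) were lower with lenvatinib in all Huh7 libraries. In PLC/PRF/5 the 8 markers summed to between 343 and 353 FPKM with lenvatinib, against 374.5 to 414 FPKM with DMSO. Among them, ALB and TTR were low in PLC/PRF/5, at 1.71 to 3.07 and 0.0436 to 0.295 FPKM over its 6 libraries, while APOB and SERPINA1 were at or above 72.7 FPKM. Of the markers of other cell types, PTPRC and CD3E of blood cells reached at most 0.0394 FPKM, VWF and CDH5 of endothelium at most 0.0354 FPKM and DCN of fibroblasts at most 0.0307 FPKM in any library. The other markers on these lists were higher. The macrophage-associated CD68 stood at 10.6 to 13.9 FPKM in PLC/PRF/5 with lenvatinib, against 14.6 to 18.1 FPKM with DMSO, and at most at 1.48 FPKM in Huh7. The collagen gene COL1A1 stood at 1.92 to 2.39 FPKM in Huh7 with lenvatinib, against 3.09 to 3.17 FPKM with DMSO, and below 0.5 FPKM in PLC/PRF/5. The endothelial PECAM1 stood at 0.608 to 0.816 FPKM in PLC/PRF/5 with lenvatinib, against 1.003 to 1.16 FPKM with DMSO, and below 0.5 FPKM in Huh7, and PDGFRB reached at most 0.289 FPKM. The epithelial markers KRT8, KRT18 and EPCAM summed to between 273 and 303 FPKM in Huh7 with lenvatinib, against 494 to 565 FPKM with DMSO. In PLC/PRF/5 they summed to 143 to 154 against 263 to 298 FPKM. KRT8 and KRT18 carried these lower sums. EPCAM overlapped between the treatments in Huh7 (63.6 to 68.3 against 66.1 to 68.3 FPKM) and reached at most 0.501 FPKM in PLC/PRF/5. The part of these marker shifts in the results was not tested.

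In Huh7, all 8 tested genes fell with lenvatinib, and in each of the 8 every lenvatinib library lay below every DMSO library. Of all genes tested, 13.3% were called lower in this comparison and 21.3% had lenvatinib libraries all below the DMSO libraries. The 8 genes kept between 2.48% (SPRY4) and 36.1% (DUSP4) of their DMSO level, and their median log2 fold change was -2.88, against 0.00 over all genes tested. In PLC/PRF/5, DUSP4 and DUSP6 fell and the other 6 did not pass the test, although 7 of the 8 had lenvatinib libraries all below the DMSO libraries. In that line 11.1% of all genes were called lower, 21.5% had lenvatinib libraries all below the DMSO libraries, and the members' median log2 fold change was -0.48, against -0.01 over all genes. Scaling by library totals in place of TMM moved the share of higher among called genes of that line to 63.1%, against 44.8%, and left 2 members called. Fold changes are log2 values with their standard errors from edgeR's quasi-likelihood test on the counts, a gene is called at a Benjamini-Hochberg adjusted p under 0.05, and CPM are scaled with TMM factors. In bulk RNA, fewer expressing cells and less RNA per cell cannot be told apart.

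**Figure D1:**
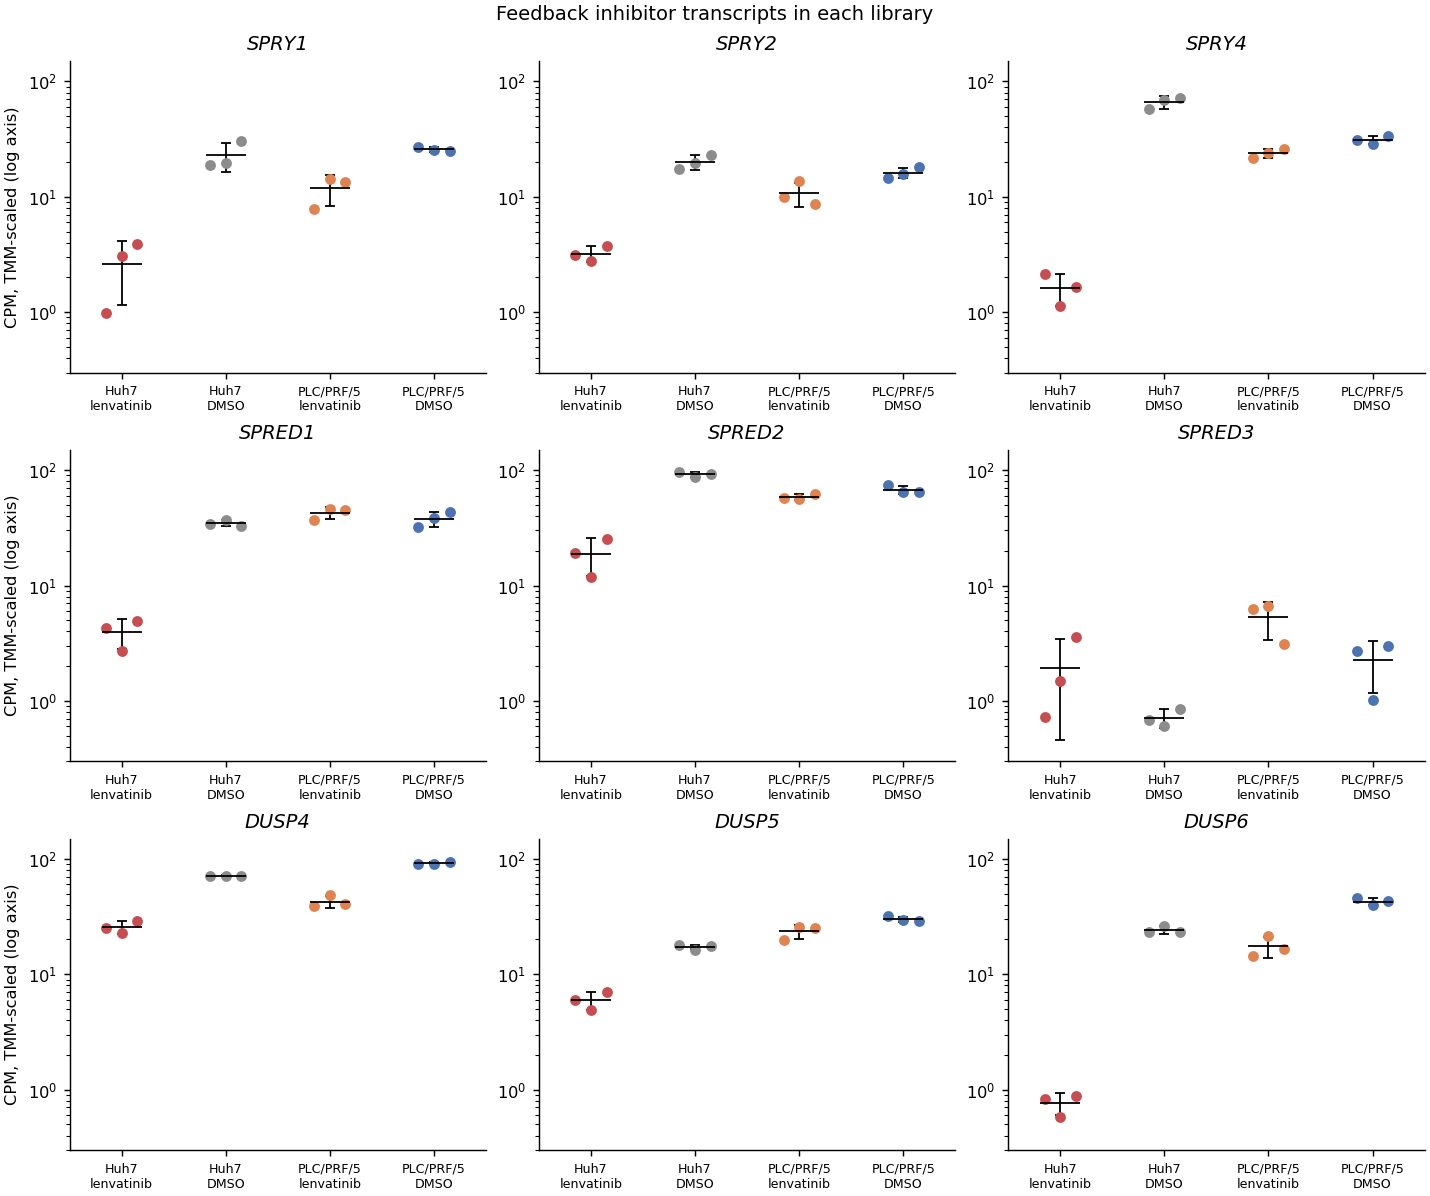
TMM-scaled CPM on a log axis for each of the 9 genes in the 3 libraries of each group (points), with the mean (horizontal line) and SD (bars). The Huh7 lenvatinib libraries lie below all other libraries in every panel but SPRED3, and the lowest of all is DUSP6 at 0.581 CPM.

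SPRY4, which restrains RAS activation downstream of growth factor receptors, had the largest change of the Sprouty genes in Huh7. Its gene spans chromosome 5, 142310427 to 142326455 (GRCh38, minus strand). In Huh7 it had 2.12, 1.12 and 1.66 CPM with lenvatinib, against 57.1, 68.9 and 72.3 CPM with DMSO. The lenvatinib libraries held 155, 83 and 119 SPRY4 counts, and the DMSO libraries held 3954 or more. This was a log2 fold change of -5.34 ± 0.22 (adjusted p = 1.01e-07 by edgeR), a 40.4-fold lower level that ranked 14 from the lowest of the 15587 fold changes. Its PLC/PRF/5 libraries had 21.5, 24.1 and 26.1 CPM with lenvatinib, against 30.8, 28.6 and 33.7 CPM with DMSO. These groups did not overlap either, but the log2 fold change of -0.38 ± 0.18 did not pass the test (adjusted p = 0.173 by edgeR, 95% interval -0.77 to 0.02).

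SPRY2, which binds the ubiquitin ligase CBL and the adaptor GRB2, fell to 16.1% of its DMSO level in Huh7. It lies on chromosome 13 from 80335976 to 80340951 (GRCh38, minus strand). Its Huh7 levels were 3.11, 2.77 and 3.76 CPM with lenvatinib, against 17.4, 19.6 and 23.1 CPM with DMSO. The highest lenvatinib library stood well below the lowest DMSO library, and the log2 fold change was -2.64 ± 0.20 (adjusted p = 6.44e-06 by edgeR). Its PLC/PRF/5 levels were 9.95, 13.6 and 8.71 CPM with lenvatinib, against 14.6, 15.8 and 18.0 CPM with DMSO. Replicate 2 with lenvatinib came close to the DMSO libraries, and the log2 fold change of -0.59 ± 0.19 just missed the threshold (adjusted p = 0.0504 by edgeR, 95% interval -1.003 to -0.17). Leaving out that library gave -0.79 with adjusted p = 0.0176 by edgeR. Leaving out replicate 2 or 3 of Huh7 with lenvatinib gave adjusted p = 0.0493 and 0.0459 by edgeR. Those libraries enter this comparison only through the shared scaling, the shared estimate of the spread and the adjustment over all genes.

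SPRY1, the Sprouty gene with the widest spread among the lenvatinib libraries of each line, lies on chromosome 4 from 123396795 to 123403760 (GRCh38, plus strand). In Huh7 it had 0.987, 3.05 and 3.86 CPM with lenvatinib, against 18.8, 19.6 and 30.4 CPM with DMSO. Replicate 1 with lenvatinib held 72 counts while the other two held 226 and 277, a coefficient of variation of 56.3%, the largest of the 8 tested members in that group. The log2 fold change in Huh7 was -3.12 ± 0.44 (adjusted p = 0.00058 by edgeR), about the size of that of SPRED1 with a larger standard error. The PLC/PRF/5 values were 7.76, 14.2 and 13.5 SPRY1 CPM with lenvatinib, against 26.9, 25.6 and 24.8 CPM with DMSO. The groups were apart, yet the log2 fold change of -1.12 ± 0.41 did not pass the test (adjusted p = 0.0827 by edgeR, 95% interval -2.03 to -0.21). Without replicate 1 of Huh7 with lenvatinib, the PLC/PRF/5 value was the same and passed (adjusted p = 0.0136 by edgeR). That library enters only through the shared scaling, the shared estimate of the spread and the adjustment over all genes.

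Start-site windows are shown because these genes fell together in Huh7: those of SPRY4 and DUSP6, with the largest changes, and those of SPRY1, SPRY2 and SPRED2 that hold an ETS core or a CRE core. The search used 12 windows of 7 of the 9 genes from RefSeq's promoter table (GRCh38.p14, 250 bases before to 50 after a start). No window of DUSP4 or DUSP5 was part of it, so nothing is said of their start sites. Those 12 windows were searched on both strands for the letters CCGGAA, called the ETS core here, and TGACGT, called the CRE core here. The AP-1 site TGANTCA, where N is any base, was searched for too. ETS proteins and AP-1 are nuclear effectors of ERK signalling. Capitals mark an ETS core or a CRE core, read 5′ to 3′ on the strand of the gene. The SPRY1 and SPRY2 windows each hold an ETS core, beginning at -67 and -142 from the start, and the SPRY4 and DUSP6 windows hold no ETS core, AP-1 site or CRE core. One SPRED2 window holds a CRE core on the other strand, beginning at 30. Windows lie at chr4:123398136-123398435 (plus) for SPRY1, chr13:80341077-80341376 (minus) for SPRY2, chr5:142324198-142324497 (minus) for SPRY4, chr2:65432550-65432849 (minus) for SPRED2 and chr12:89352452-89352751 (minus) for DUSP6.
SPRY1: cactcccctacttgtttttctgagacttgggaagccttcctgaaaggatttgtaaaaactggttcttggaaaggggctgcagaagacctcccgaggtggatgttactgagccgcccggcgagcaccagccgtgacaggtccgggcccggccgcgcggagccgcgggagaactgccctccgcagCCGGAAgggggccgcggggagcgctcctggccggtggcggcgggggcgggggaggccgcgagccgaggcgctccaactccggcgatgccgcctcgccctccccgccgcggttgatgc
SPRY2: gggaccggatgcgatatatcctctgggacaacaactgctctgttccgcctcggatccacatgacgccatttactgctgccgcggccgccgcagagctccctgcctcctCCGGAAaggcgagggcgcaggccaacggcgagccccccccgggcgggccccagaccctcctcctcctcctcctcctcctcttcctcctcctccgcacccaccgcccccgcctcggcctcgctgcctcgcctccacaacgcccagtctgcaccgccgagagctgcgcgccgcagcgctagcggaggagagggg
SPRY4: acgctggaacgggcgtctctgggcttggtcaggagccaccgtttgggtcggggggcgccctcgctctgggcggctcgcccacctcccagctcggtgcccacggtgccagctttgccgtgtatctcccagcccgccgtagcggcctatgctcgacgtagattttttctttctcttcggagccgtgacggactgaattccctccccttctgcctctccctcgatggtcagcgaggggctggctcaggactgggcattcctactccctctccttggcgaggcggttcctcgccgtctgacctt
SPRED2: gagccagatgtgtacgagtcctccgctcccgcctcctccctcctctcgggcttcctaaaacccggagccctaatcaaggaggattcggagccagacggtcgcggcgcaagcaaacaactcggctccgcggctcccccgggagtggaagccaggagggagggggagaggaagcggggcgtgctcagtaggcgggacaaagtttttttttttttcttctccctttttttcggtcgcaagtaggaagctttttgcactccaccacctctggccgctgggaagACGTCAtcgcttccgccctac
DUSP6: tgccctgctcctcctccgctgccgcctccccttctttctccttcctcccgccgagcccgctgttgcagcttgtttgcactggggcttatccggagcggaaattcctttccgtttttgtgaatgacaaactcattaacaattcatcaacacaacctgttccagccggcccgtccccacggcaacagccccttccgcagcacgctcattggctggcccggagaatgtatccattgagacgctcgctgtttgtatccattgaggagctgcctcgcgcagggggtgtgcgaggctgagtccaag

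Across the 12 windows, the ETS core stood in 2, the AP-1 site in 2 (1 of SPRED2, which held it at 2 places, and 1 of SPRED3) and the CRE core in 1. Among all 35116 windows of the table, 17.2% held the ETS core, 7.71% the AP-1 site and 7.98% the CRE core. The matches are descriptions of letters in these windows, and binding was not measured.

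SPRED1, whose loss of one copy causes Legius syndrome in people, was among the genes that differed most between the lines. It lies on chromosome 15 from 38252326 to 38357249 (GRCh38, plus strand). Huh7 libraries had 4.28, 2.70 and 4.95 SPRED1 CPM with lenvatinib, against 33.9, 36.9 and 33.0 CPM with DMSO. All 3 lenvatinib libraries were at a small fraction of the DMSO libraries, which lay close together, and the log2 fold change was -3.12 ± 0.21 (adjusted p = 2.79e-06 by edgeR). PLC/PRF/5 libraries had 36.8, 45.6 and 45.5 CPM with lenvatinib, against 32.1, 38.2 and 43.7 CPM with DMSO. Here the groups overlapped, and the log2 fold change of 0.17 ± 0.19 had a 95% interval of -0.25 to 0.59 (adjusted p = 0.604 by edgeR). SPRED1 was the single tested member with a positive fold change in either line.

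SPRED2, the most abundant SPRED transcript in all 4 groups, lies on chromosome 2 from 65310851 to 65432637 (GRCh38, minus strand). In Huh7 it stood at 19.1, 11.9 and 25.5 CPM with lenvatinib, against 96.5, 87.4 and 92.7 CPM with DMSO. The lenvatinib libraries differed among themselves by more than the DMSO libraries did, and none came near them. Its log2 fold change was -2.29 ± 0.22 (adjusted p = 3.70e-05 by edgeR). The PLC/PRF/5 libraries had 56.9, 56.2 and 62.7 CPM with lenvatinib, against 73.6, 64.1 and 64.4 CPM with DMSO. The highest lenvatinib library lay just under the lowest DMSO library, and the log2 fold change of -0.20 ± 0.21 did not pass the test (adjusted p = 0.558 by edgeR, 95% interval -0.66 to 0.26).

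SPRED3, which is on chromosome 19 from 38388421 to 38399587 (GRCh38, plus strand), was the rarest of the 9 and had higher mean values with lenvatinib. Huh7 libraries held 53, 111 and 258 SPRED3 counts with lenvatinib, against 47, 44 and 64 with DMSO. PLC/PRF/5 libraries held 468, 507 and 227 counts with lenvatinib, against 196, 70 and 212 with DMSO. The groups overlapped in Huh7 and lay apart in PLC/PRF/5, where replicate 3 with lenvatinib was close to the highest DMSO libraries. In a fit with no minimum on FPKM, the log2 fold changes were 1.44 ± 0.55 in Huh7 and 1.27 ± 0.53 in PLC/PRF/5, and neither passed the test (adjusted p = 0.155 and 0.240 by edgeR). In the same fit SPRED3 was higher in PLC/PRF/5 than in Huh7, by 1.49 ± 0.54 with lenvatinib (adjusted p = 0.0468 by edgeR) and by 1.66 ± 0.55 with DMSO (adjusted p = 0.0305 by edgeR).

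DUSP6, the cytoplasmic ERK phosphatase, fell in both lines, by far more in Huh7. It lies on chromosome 12 from 89347232 to 89353271 (GRCh38, minus strand). In Huh7 it had 0.836, 0.581 and 0.878 CPM with lenvatinib, against 23.2, 26.3 and 23.1 CPM with DMSO. The lenvatinib libraries held 61, 43 and 63 counts, and the log2 fold change was -4.98 ± 0.20 (adjusted p = 9.83e-08 by edgeR), rank 22 from the lowest of all genes tested. PLC/PRF/5 cells had 14.4, 21.4 and 16.5 CPM with lenvatinib, against 45.6, 39.6 and 42.8 CPM with DMSO. All 3 lenvatinib libraries were well below the DMSO libraries, and the log2 fold change was -1.29 ± 0.17 (adjusted p = 0.000544 by edgeR). In GENCODE 29 an antisense gene, AC024909.2, shares 1875 exonic bases with DUSP6, and the sources used here do not give the strand setting of the counting, so reads of the pair cannot be told apart. A table row named AC024909, without a version, held 29, 11 and 8 counts in Huh7 with lenvatinib, against 43, 267 and 144 with DMSO, and 0, 0 and 74 counts in PLC/PRF/5 with lenvatinib, against 65, 160 and 116 with DMSO.

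DUSP4, a nuclear phosphatase of ERK and other MAP kinases, was the gene with the most similar change in both lines. It lies on chromosome 8 from 29333064 to 29350668 (GRCh38, minus strand). In Huh7 it had 25.1, 22.8 and 29.2 CPM with lenvatinib, against 71.6, 71.5 and 70.6 CPM with DMSO. The DMSO libraries were nearly equal, with a coefficient of variation of 0.758%, and the log2 fold change was -1.47 ± 0.10 (adjusted p = 3.13e-06 by edgeR). PLC/PRF/5 libraries had 39.0, 48.5 and 40.3 CPM with lenvatinib, against 90.7, 90.2 and 93.7 CPM with DMSO. That was a log2 fold change of -1.10 ± 0.10 (adjusted p = 6.88e-05 by edgeR), with the groups far apart.

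DUSP5, a nuclear phosphatase with a strong preference for ERK, lies on chromosome 10 from 110497838 to 110511544 (GRCh38, plus strand). Its Huh7 libraries had 5.92, 4.88 and 7.01 CPM with lenvatinib, against 17.7, 16.3 and 17.5 CPM with DMSO. The groups were apart, and the log2 fold change was -1.53 ± 0.14 (adjusted p = 2.82e-05 by edgeR). Its PLC/PRF/5 libraries had 19.9, 25.7 and 25.0 CPM with lenvatinib, against 31.7, 29.4 and 29.1 CPM with DMSO. The lenvatinib libraries were lower in every case, but the log2 fold change of -0.35 ± 0.14 did not pass the test (adjusted p = 0.104 by edgeR, 95% interval -0.66 to -0.05).

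The difference between the lines was tested directly, as the PLC/PRF/5 change minus the Huh7 change in 1 fit; it shares all its libraries with the comparisons above. A positive value means that the change was less negative, or more positive, in PLC/PRF/5. For 7 of the 8 genes the difference was positive and passed the test, against 7.49% of all genes tested, and the median over the 8 was 2.07, against -0.01 over all genes. SPRY4 had the largest difference, 4.96 ± 0.27 on the log2 scale (adjusted p = 2.71e-06 by edgeR). DUSP6 followed at 3.69 ± 0.25 (adjusted p = 8.49e-06 by edgeR) and SPRED1 at 3.29 ± 0.28 (adjusted p = 4.21e-05 by edgeR). SPRED2, SPRY2 and SPRY1 lay close together at 2.09 ± 0.30, 2.05 ± 0.27 and 2.001 ± 0.58, and DUSP5 at 1.18 ± 0.20 (adjusted p = 0.0011, 0.000627, 0.0450 and 0.00281 by edgeR, in that order).

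The SPRY1 difference was the least secure of the 7. It no longer passed under 11 of 22 other settings, with adjusted p between 0.00295 and 0.120 over all 22. Those 11 were the fits with no minimum and with edgeR's own filter, and the removal of any single library other than replicates 1 and 3 of Huh7 with lenvatinib and replicate 1 of PLC/PRF/5 with lenvatinib. Removal of replicate 3 of Huh7 with DMSO gave the largest adjusted p among the removals, 0.101, with a difference of 1.74. DUSP4 was the gene that did not pass: its difference was 0.37 ± 0.14 (adjusted p = 0.111 by edgeR, 95% interval 0.06 to 0.67). It passed without replicate 3 of Huh7 with lenvatinib, at 0.47 with adjusted p = 0.0320.

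**Figure D2:**
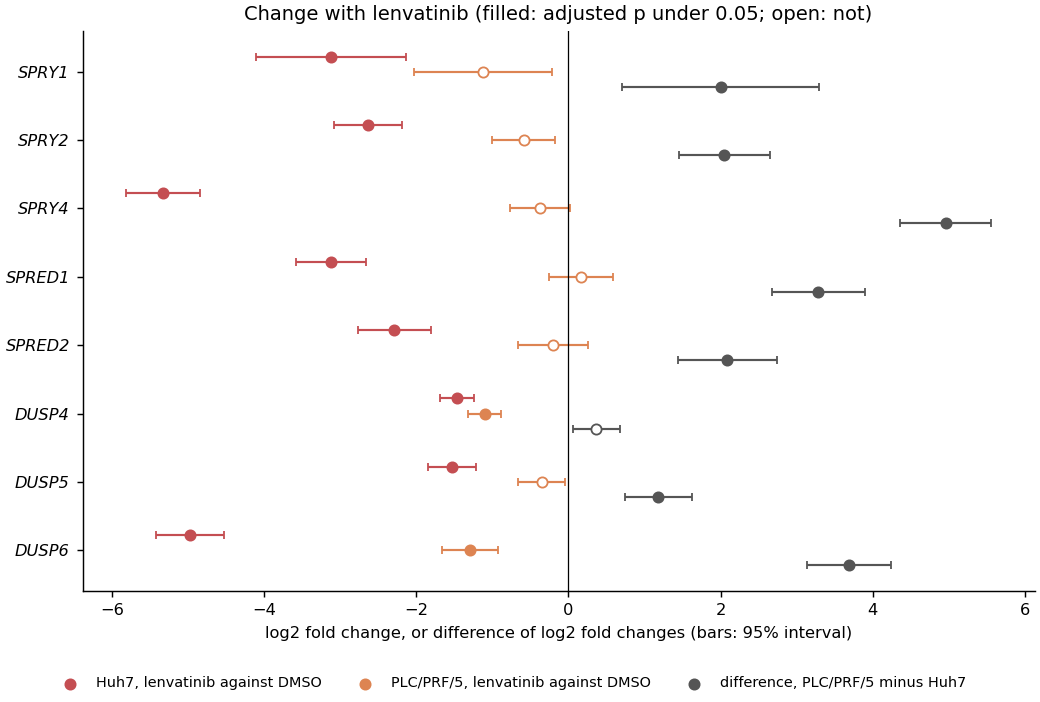
Log2 fold change with lenvatinib against DMSO for the 8 tested genes in Huh7 (red) and PLC/PRF/5 (orange), and the difference of the changes, PLC/PRF/5 minus Huh7 (grey), with 95% intervals; filled points passed at an adjusted p under 0.05. The Huh7 changes spread from -5.34 for SPRY4 to -1.47 for DUSP4, while the PLC/PRF/5 changes lie between -1.29 and 0.17.

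Between the lines, the starting levels differed far less than the levels with lenvatinib. The line comparisons use the same libraries as the drug comparisons. With lenvatinib, all 8 genes were higher in PLC/PRF/5 than in Huh7 and no gene's libraries overlapped, in a comparison in which 34.5% of all genes were called higher and 37.2% had PLC/PRF/5 libraries all above the Huh7 libraries. The log2 difference with lenvatinib was 4.51 ± 0.20 for DUSP6, 3.87 ± 0.21 for SPRY4 and 3.42 ± 0.21 for SPRED1, and it was smallest for DUSP4 at 0.73 ± 0.10. The 8 genes had a median of 2.08, against 0.02 over all genes, and the largest adjusted p among them was 0.00103 by edgeR.

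With DMSO, 3 of the 8 genes were higher in PLC/PRF/5 and 1 was lower, while 33.9% of all genes were called higher and 33.1% lower. The 3 that were higher were the phosphatases: DUSP6 by 0.82 ± 0.17, DUSP5 by 0.81 ± 0.14 and DUSP4 by 0.36 ± 0.10 on the log2 scale (adjusted p = 0.00107, 0.000374 and 0.00693 by edgeR, in that order). SPRY4 was lower in PLC/PRF/5, at -1.09 ± 0.18 (adjusted p = 0.000253 by edgeR), so that the gene with the largest fall in Huh7 also started higher there. SPRED2 had PLC/PRF/5 libraries all below the Huh7 libraries, with a log2 difference of -0.45 ± 0.21 that did not pass (adjusted p = 0.0746 by edgeR). It passed without replicate 2 or replicate 3 of Huh7 with lenvatinib (adjusted p = 0.00307 and 0.0190 by edgeR). Those libraries enter this comparison only through the shared scaling, the shared estimate of the spread and the adjustment over all genes. SPRY2, SPRY1 and SPRED1 overlapped between the lines, at -0.31, 0.17 and 0.13 (adjusted p = 0.167, 0.736 and 0.559 by edgeR).

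Levels of different genes were compared per length, on the deposited FPKM, which for these genes matched the counts within a ratio of 0.956 to 1.02 once a length was fitted to each gene. Summed over the 9 genes, Huh7 had 10.4 ± 2.498 FPKM with lenvatinib, against 55.2 ± 2.55 FPKM with DMSO (SD, n = 3). PLC/PRF/5 had 41.2 ± 4.09 FPKM with lenvatinib, against 57.8 ± 1.74 FPKM with DMSO. With DMSO the sums of the lines overlapped, at 55.8 to 58.8 FPKM in PLC/PRF/5 and 53.3 to 58.1 FPKM in Huh7, and with lenvatinib they did not, at 36.7 to 44.8 FPKM in PLC/PRF/5 and 8.15 to 13.1 FPKM in Huh7.

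By family, the Sprouty sum was 1.61 ± 0.387 FPKM in Huh7 with lenvatinib, against 18.4 ± 2.94 FPKM with DMSO, and 8.78 ± 1.35 against 13.6 ± 0.568 FPKM in PLC/PRF/5. The SPRED sum was 3.62 ± 1.37 FPKM in Huh7 with lenvatinib, against 17.8 ± 0.601 FPKM with DMSO, and 15.04 ± 0.688 against 14.6 ± 0.538 FPKM in PLC/PRF/5. The phosphatase sum was 5.15 ± 0.827 FPKM in Huh7 with lenvatinib, against 19.0 ± 0.180 FPKM with DMSO, and 17.3 ± 2.30 against 29.6 ± 0.965 FPKM in PLC/PRF/5. The PLC/PRF/5 libraries of the 2 treatments thus lay apart for the Sprouty and phosphatase sums and overlapped for the SPRED sum.

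**Figure D3:**
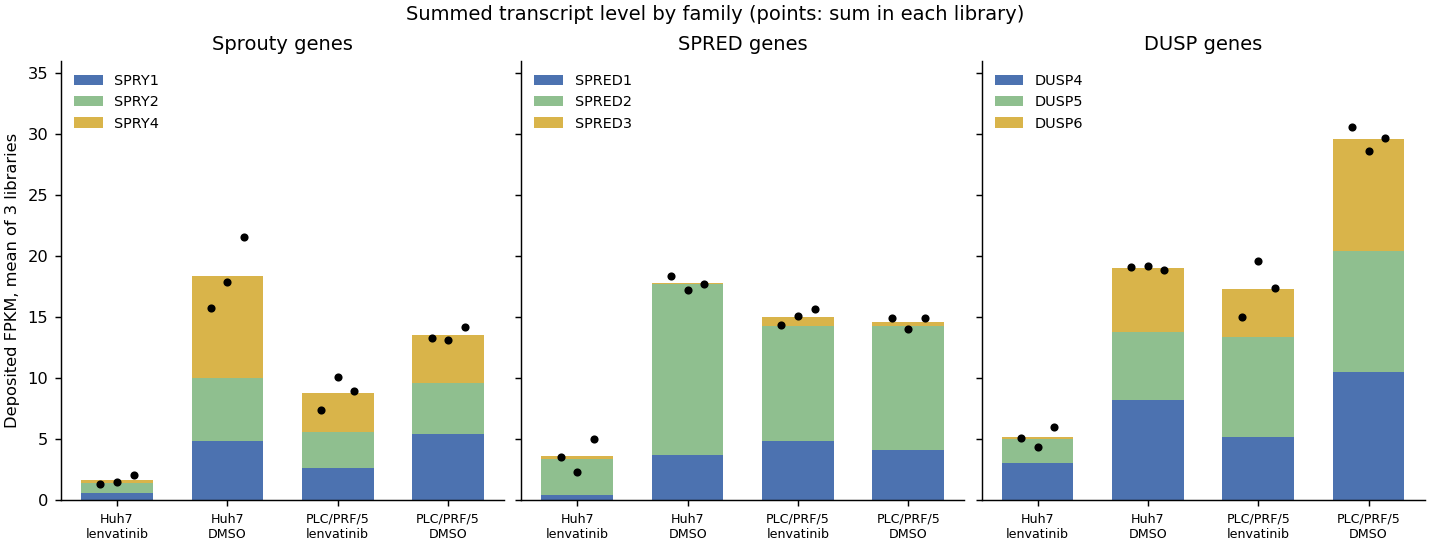
Deposited FPKM of the Sprouty, SPRED and phosphatase genes, stacked by gene (means of 3 libraries) with the sum in each library as points. In Huh7 all 3 sums are far lower with lenvatinib, and in PLC/PRF/5 the SPRED sum stays at 15.04 FPKM with lenvatinib against 14.6 FPKM with DMSO.

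The make-up of the families also shifted. DUSP6 made up 3.20 ± 0.405% of the phosphatase FPKM in Huh7 with lenvatinib, against 27.4 ± 1.81% with DMSO, and 22.9 ± 1.73% against 31.1 ± 1.10% in PLC/PRF/5. SPRY4 made up 13.6 ± 6.46% of the Sprouty FPKM in Huh7 with lenvatinib, against 45.9 ± 3.08% with DMSO. Its share in PLC/PRF/5 was 36.9 ± 4.31% with lenvatinib, against 29.1 ± 1.31% with DMSO. The SPRY4 share was therefore lower in every lenvatinib library of Huh7, and higher in every lenvatinib library of PLC/PRF/5, than in all DMSO libraries of the same line.

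In order of FPKM, SPRED2 led in Huh7 with DMSO at 13.96 ± 0.743, followed by SPRY4 at 8.40 ± 0.994 and DUSP4 at 8.16 ± 0.0675, which overlapped each other. DUSP5, DUSP6, SPRY2, SPRY1 and SPRED1 came next, between 5.65 and 3.72 FPKM, each overlapping the gene before it from DUSP6 on, and SPRED3 was last at 0.0982. In Huh7 with lenvatinib, DUSP4, SPRED2 and DUSP5 led at 2.998, 2.90 and 1.98 FPKM with overlapping libraries, and SPRY4 and DUSP6 were the lowest of the 9 at 0.209 and 0.166 FPKM, also overlapping SPRED3 or each other. SPRY4 thus moved to place 8 in Huh7 with lenvatinib, against place 2 with DMSO. PLC/PRF/5 with lenvatinib was led by SPRED2 at 9.39 and DUSP5 at 8.18 FPKM, which did not overlap. With DMSO in that line DUSP4, SPRED2, DUSP5 and DUSP6 led at 10.5, 10.2, 9.90 and 9.23 FPKM, each overlapping its neighbour.

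Within both lenvatinib groups, the same library was often lowest or highest over these genes. In Huh7 with lenvatinib, replicate 2 was the lowest of the 3 for 7 of the 8 tested genes and replicate 3 the highest for 7. In PLC/PRF/5 with lenvatinib, replicate 1 was the lowest for 6 genes and replicate 2 the highest for 6. Among the DMSO libraries no such order was seen in Huh7, where none was lowest or highest for more than 3 genes, and in PLC/PRF/5 replicate 2 was lowest for 4 and highest for none. The 8 genes share each library, so these counts are not independent, and their cause was not tested.

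**Figure D4:**
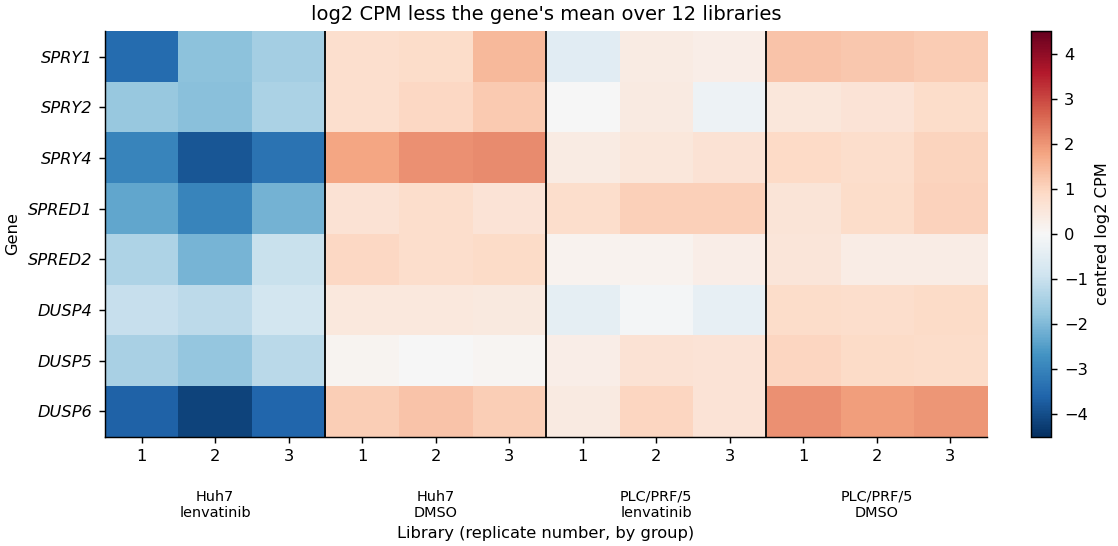
Log2 CPM of the 8 tested genes in the 12 libraries, less each gene's own mean, with libraries by group and replicate number. The Huh7 lenvatinib libraries are the lowest of every gene, most of all for SPRY4 and DUSP6, and the PLC/PRF/5 lenvatinib libraries stand below the DMSO libraries chiefly for DUSP4, DUSP6 and SPRY1.

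To see which other transcripts ran most alike, every gene was centred on its own mean log2 CPM and ranked by the root mean square difference from each member over the 12 libraries, among the 13172 other tested genes whose mean FPKM was 1 or more. For DUSP6 the closest were ETV4 (0.42) and ETV5 (0.44), ETS transcription factors of the PEA3 group, and the cyclic AMP phosphodiesterase PDE4B (0.51). For SPRY4 they were ETV5 (0.52), LINC02331 (0.65) and the ephrin receptor EPHA2 (0.76). In centred log2 CPM, ETV5 stood at -3.58 in Huh7 with lenvatinib against 1.26 with DMSO, and SPRY4 stood at -3.38 with lenvatinib against 1.98 with DMSO.

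The phosphodiesterase PDE3A, PROM1 and AC112777 were the 3 nearest to both SPRY2 and SPRED2, within 0.19 to 0.29, and SPRY2 and SPRED2 were also the closest pair of members (0.31). SPRY1 was nearest to EPHA2 (0.55), ABALON (0.61) and the chloride transporter CLCN4 (0.67). SPRED1 was nearest to FAM111B (0.41), the ribonucleotide reductase subunit RRM2 (0.42) and CLCN4 (0.43). DUSP5 was nearest to thymidylate synthase TYMS (0.15), the phospholipase PLD1 (0.18) and the PCNA-associated PCLAF (0.19). DUSP4 was nearest to ZSWIM4 (0.18), the connexin GJA1 (0.19) and the amino acid transporter SLC38A2 (0.22).

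The other genes of the pathway did not all follow the members. Of 18 listed relatives and other regulators of receptor kinase signalling, 17 were tested (SPRY3 was under the minimum). Of these, 6 rose and 4 fell in Huh7 with a median log2 fold change of 0.07, where 11.4% of all genes tested rose and 13.3% fell. In PLC/PRF/5 3 rose and 1 fell with a median of -0.01, where 9.01% of all genes rose and 11.1% fell. SPSB1, an adaptor of a ubiquitin ligase, rose in both lines, by 1.46 ± 0.09 in Huh7 and 0.53 ± 0.08 in PLC/PRF/5 (adjusted p = 9.73e-07 and 0.00175 by edgeR). LRIG1, a membrane protein that promotes receptor turnover, rose by 0.38 ± 0.07 in Huh7 (adjusted p = 0.00337 by edgeR). NF1, the partner of SPRED proteins, fell, at -0.52 ± 0.07 in Huh7 (adjusted p = 0.000304 by edgeR).

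Among 7 other MAP kinase phosphatases, of which DUSP2 was under the minimum, none of the 6 tested fell in Huh7, where 13.3% of all genes fell, a share at which 0 of 6 is no departure. DUSP8 and DUSP9 rose there, by 0.99 ± 0.12 and 0.71 ± 0.16 (adjusted p = 0.000195 and 0.00857 by edgeR), where 11.4% of all genes rose. In PLC/PRF/5 2 rose and 1 fell, where 9.01% of all genes rose and 11.1% fell. DUSP9 rose by 0.87 ± 0.17, and DUSP1, an early-induced nuclear phosphatase, fell, at -0.93 ± 0.08 (adjusted p = 0.00557 and 6.88e-05 by edgeR). The other that rose, DUSP7, did so by 0.65 ± 0.21 with overlapping libraries (adjusted p = 0.0485 by edgeR), and it no longer passed under 14 other settings; DUSP9 in that line did not pass under voom weights. DUSP1 and DUSP8 differed between the lines, at -0.97 ± 0.12 and -1.24 ± 0.17 as PLC/PRF/5 minus Huh7 (adjusted p = 0.000394 and 0.000879 by edgeR), in the opposite direction to the members.

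Transcripts of the cascade itself, from the receptor adaptors to ERK and its kinase substrates, had medians near 0 in both lines. Of 22 listed, 21 were tested (RPS6KA2 was under the minimum): in Huh7 2 rose and 3 fell, and in PLC/PRF/5 5 rose and 5 fell, with medians of -0.01 and -0.05. All genes tested rose in 11.4% and fell in 13.3% of cases in Huh7, close to these counts, and rose in 9.01% and fell in 11.1% in PLC/PRF/5. SOS1, the exchange factor that loads RAS with GTP, rose by 1.01 ± 0.05 in Huh7 and by 0.30 ± 0.04 in PLC/PRF/5 (adjusted p = 1.52e-07 and 0.00124 by edgeR). MAP2K1, which encodes MEK1, fell, at -0.36 ± 0.06 in Huh7 (adjusted p = 0.000813 by edgeR).

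Other transcripts known to respond to ERK moved in both directions in Huh7. Of 15 listed, 14 were tested (EPHA4 was under the minimum): 2 rose and 6 fell in Huh7, with a median of -1.40, and none rose and 6 fell in PLC/PRF/5, with a median of -0.40. The remaining 6 in Huh7 and 8 in PLC/PRF/5 did not pass the test. Of all genes tested, 11.4% rose and 13.3% fell in Huh7, and 9.01% rose and 11.1% fell in PLC/PRF/5. MYC and EGR1 were the 2 that rose in Huh7, by 1.39 ± 0.28 and 0.88 ± 0.16 (adjusted p = 0.00435 and 0.00221 by edgeR). In Huh7 the ETS factors ETV5 and ETV1 fell, at -4.85 ± 0.14 and -4.25 ± 0.19 (adjusted p = 6.56e-09 and 1.60e-07 by edgeR). EPHA2 and cyclin D1 (CCND1) fell in that line too, at -3.50 ± 0.15 and -2.00 ± 0.06 (adjusted p = 1.03e-07 and 8.30e-09 by edgeR). In PLC/PRF/5 VGF, IER3, PHLDA1 and EPHA2 fell, at -2.54 ± 0.27, -1.57 ± 0.22, -1.03 ± 0.12 and -0.70 ± 0.13 (largest adjusted p = 0.00424 by edgeR). The difference between the lines was called positive for 5 of the 14 and negative for 3, against 7.49% and 6.9% of all genes tested. ETV5, ETV1, EPHA2 and CCND1 had positive differences, of 4.597, 3.80, 2.80 and 1.79, so their changes too were smaller in PLC/PRF/5 (largest adjusted p = 8.49e-06 by edgeR). The 3 negative ones, opposite to the members, were VGF at -2.62 ± 0.38, PHLDA1 at -1.10 ± 0.17 and EGR1 at -0.87 ± 0.22 (adjusted p = 0.00115, 0.0019 and 0.0243 by edgeR); VGF and PHLDA1 had Huh7 changes of 0.08 and 0.07 that did not pass. The EGR1 difference no longer passed when replicate 1 of either Huh7 group or replicate 1 or 3 of PLC/PRF/5 with DMSO was left out (largest adjusted p = 0.0584). MYC, EGR1 and the VGF difference were named after their values were seen. Of 10 ETS partners and repressors, 1 rose and 1 fell in Huh7, and 1 rose and 4 fell in PLC/PRF/5. The shares of all genes that rose and fell were 11.4% and 13.3% in Huh7, close to these counts, and 9.01% and 11.1% in PLC/PRF/5. ETS2 went opposite ways, at 0.51 ± 0.08 in Huh7 and -0.41 ± 0.08 in PLC/PRF/5 (adjusted p = 0.000794 and 0.00414 by edgeR), a difference of -0.92 ± 0.11 (adjusted p = 0.000349 by edgeR).

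**Figure D5:**
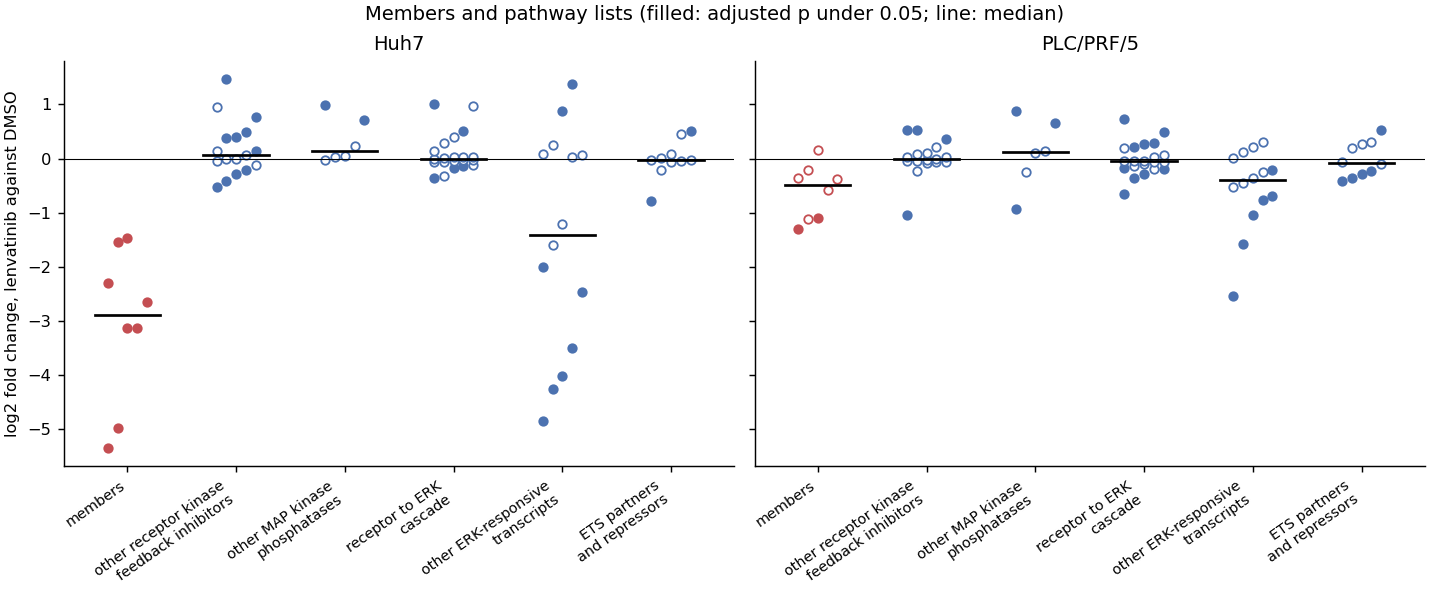
Log2 fold change with lenvatinib against DMSO of the 8 tested members (red) and of 5 pathway lists (blue) in Huh7 and PLC/PRF/5; each point is a gene, filled where the adjusted p was under 0.05, and the line is the median. The members' median is -2.88 in Huh7 and -0.48 in PLC/PRF/5, that of the other ERK-responsive transcripts is -1.40 and -0.40, and the other lists have medians near 0.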

How the data were processed

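RNA of 12 libraries (Huh7 and PLC/PRF/5, lenvatinib or DMSO, 3 each, grouped by sample title) was read as single ends of 50 bases on a BGIseq500, per the labels. HISAT2 and hg19 appear in the submitters' processing notes; version, counting program, annotation and strand setting were not stated in the sources used here. Per the file headers, the deposited table gives each library a count and an FPKM, both made by the authors; 12 columns of other libraries were not used. No row lacks a gene name, and 2803 symbols stand on several rows, which were kept apart.

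The deposited counts were tested with edgeR 4.0.16 (quasi-likelihood, robust, TMM factors, 1 coefficient per group over the 12 libraries), on the 15587 rows with a mean FPKM of at least 0.5, with Benjamini-Hochberg adjusted p and a 0.05 threshold. The fit was tested on simulated data. Each standard error is the absolute log2 fold change divided by the root of the F statistic. Alternatives were DESeq2 1.42.0, limma 3.58.1 on log2(FPKM + 1) and log2(FPKM + 0.1), voom weights, other filters and scalings, a replicate block, fits of the compared groups alone and removal of each library. Named are all members, up to 4 genes of smallest adjusted p per pathway list and comparison (mean FPKM of at least 1; part of them is printed), and the 3 nearest genes of each member. Members and lists were chosen with earlier results of these data known. GENCODE 29 (GRCh38) gave positions and overlaps of exons, and RefSeq (GRCh38.p14) the promoters, other builds than the submitters'. A search for CC, any bases, GG as a CArG form is not reported, since that pattern does not define the box bound by the serum response factor. The counting error of a gene with few counts is not the replicate error; only the latter enters the tests. R 4.3.3, Python 3.11.15, numpy 2.4.6, pandas 2.3.3 and matplotlib 3.10.9 were used.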

Additional observations from a re-analysis of the deposited data

Results flagged for a closer look

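For 7 of the 8 tested genes the change with lenvatinib differed between the lines by the test of the difference itself (PLC/PRF/5 minus Huh7, log2 scale, edgeR's quasi-likelihood test with 3 libraries per group). The differences were 4.96 for SPRY4, 3.69 for DUSP6, 3.29 for SPRED1, 2.09 for SPRED2, 2.05 for SPRY2, 2.001 for SPRY1 and 1.18 for DUSP5. A positive difference was called for 7.49% of all genes tested. In all 7 genes the 3 Huh7 lenvatinib libraries lay below the 3 Huh7 DMSO libraries, as in 21.3% of all genes tested. In PLC/PRF/5 the same held for 6 of the 7, with SPRED1 as the exception, and for 21.5% of all genes. The 7 were picked by a test on these same libraries. The cause of the differences was not tested.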

How the results depend on the processing

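The members were recomputed under up to 23 other settings, 912 values in all. None changed direction, 881 stayed on their side of the threshold, 11 no longer passed and 20 newly passed. The 11 are all the SPRY1 difference between the lines (adjusted p up to 0.120). The 20 are SPRY1 and SPRY2 in PLC/PRF/5 with 6 settings each, SPRED2 between the lines with DMSO with 6, DUSP5 in PLC/PRF/5 under voom weights (adjusted p = 0.0298) and the DUSP4 difference with 1.

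In PLC/PRF/5 the 2 members called lower became 4 with DESeq2, 4 with limma on log2(FPKM + 1) and 5 with voom weights, and 2 to 3 with a library left out. Between the lines with DMSO the 1 member called lower in PLC/PRF/5 became 2 with DESeq2, limma on log2(FPKM + 1), voom weights and the fit of the compared groups alone; with a library left out it was 1 to 2, and 2 without replicate 2 or 3 of Huh7 with lenvatinib. The pseudocount of 1 shrinks low values by construction: the Huh7 changes of SPRY4 and DUSP6 were then -2.95 and -2.42. On counts they ranged from -5.57 to -5.12 and from -5.09 to -4.81.

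Scaling by library totals alone moved the median of all genes by less than 0.1 on the log2 scale, but the share of higher among called genes in PLC/PRF/5 to 63.1%, from 44.8% with TMM; the member calls were 2 lower under both. Of 2121 values of the pathway genes named, 2060 stayed on their side, 61 no longer passed and none reversed.

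The labels do not say whether replicate numbers pair the libraries. Residuals of libraries with the same number correlated between -0.0350 and 0.0494, and those with other numbers between -0.0401 and 0.0279. Within their line, 4 of 12 libraries correlated best with their own number. Residuals from means of 3 libraries cannot decide whether libraries were paired. With a replicate block, 3535 genes were called in Huh7 (3850 without), 2807 in PLC/PRF/5 (3133) and 1957 for the difference (2243); SPRY1 in PLC/PRF/5 passed with adjusted p = 0.0429. The lowest levels rest on few counts, 43 to 63 for DUSP6 and 83 to 155 for SPRY4 in Huh7 with lenvatinib.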
